A study of Mus musculus with 4 samples.

Results

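Immediate-early genes are the genes a cell transcribes within minutes of a stimulus, without first making new protein. The 10 studied here were Fos, Fosb, Jun, Junb, Jund, Egr1, Egr2, Atf3, Ier2 and Nr4a1. They were measured in cells sorted as satellite cells, the stem cells that lie along skeletal muscle fibres. The members were the probe sets of the array that its annotation assigns to exactly 1 of these genes. There were 13 such probe sets among 45101 in the table, and all 10 genes were found among the 18193 genes tested. Jun, Jund and Egr2 had 2 probe sets each and the other genes 1.

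The cells came from the hindlimb muscle of C57BL/6J mice, young adults of 3 to 6 months or aged adults of 20 to 25 months, with no other treatment named. Per the labels they were isolated from the muscle, pooled over several mice (4 to 8 per pool in the series text, 6 to 8 in the sample text) and sorted by FACS for syndecan-4, a cell surface proteoglycan. Each age had 2 independent pools, numbered 1 and 2, and each of the 4 Affymetrix arrays held the RNA of 1 pool after 2 rounds of T7 amplification. A pool averages its mice, so the spread between pools is the error here.

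Fos and Jun proteins pair through leucine zippers to form the transcription factor AP-1, and Atf3 belongs to the same zipper class. Egr1 and Egr2 are zinc finger factors and Nr4a1 is an orphan nuclear receptor. These genes are switched on through MAP kinases, the serum response factor SRF with its partners, and CREB. They are also well known to be induced when muscle is digested with enzymes and satellite cells are sorted. Every pool here had been isolated and sorted, and undissociated muscle was not analysed here, so the response to dissociation itself could not be measured. The name of the group describes what the genes are known for.

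Each value is the distance from the probe set's own median of the 4 arrays, on a scale taken as log2. They show which pools were higher or lower for a gene, and hold no expression level. Whether a member was abundant or barely expressed is therefore unknown, and no member's level can be set against another's. In a median-centred set of 4, the 2 middle arrays carry values of equal size and opposite sign.

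The stretches upstream of the transcription start show which of the sites that the known regulators bind are spelled out near these genes. RefSeq promoter windows (GRCm38.p6) were searched for 8 of the 10 members, through 12 windows of 250 bases before a start. No window of Egr1 or Ier2 was part of the search, so nothing is known here about their sites. Shown are Fos, Nr4a1 and Jund, whose aged pools both lay above the young pools by gene value. Also shown is Fosb, which differed most between the pool numbers. Capitals mark the hexamer TGACGT, with which the CREB site begins, its variant TGACGC and the Egr site GCGNGGGCG, on either strand; a match on the opposite strand is printed as its complement (GCGTCA for TGACGC). Fos lies at chr12:85473640-85473889 on the plus strand, Nr4a1 at chr15:101266596-101266845 on the plus strand, Jund at chr8:70697489-70697738 on the plus strand and Fosb at chr7:19310046-19310295 on the minus strand.
Fos: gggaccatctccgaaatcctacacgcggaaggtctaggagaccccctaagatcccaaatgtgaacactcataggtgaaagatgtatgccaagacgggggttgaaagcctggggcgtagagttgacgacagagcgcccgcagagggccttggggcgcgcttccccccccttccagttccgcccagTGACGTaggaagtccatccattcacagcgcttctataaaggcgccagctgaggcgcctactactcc
Nr4a1: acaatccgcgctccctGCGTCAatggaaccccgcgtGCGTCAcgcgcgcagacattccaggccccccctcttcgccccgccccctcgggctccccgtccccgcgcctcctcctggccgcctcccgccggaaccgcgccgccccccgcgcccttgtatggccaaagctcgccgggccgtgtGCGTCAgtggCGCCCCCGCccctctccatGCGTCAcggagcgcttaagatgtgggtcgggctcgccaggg
Jund: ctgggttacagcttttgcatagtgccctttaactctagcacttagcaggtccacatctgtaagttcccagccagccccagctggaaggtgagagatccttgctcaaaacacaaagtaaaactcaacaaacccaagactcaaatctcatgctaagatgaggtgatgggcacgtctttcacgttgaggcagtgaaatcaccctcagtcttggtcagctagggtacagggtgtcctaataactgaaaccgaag
Fosb: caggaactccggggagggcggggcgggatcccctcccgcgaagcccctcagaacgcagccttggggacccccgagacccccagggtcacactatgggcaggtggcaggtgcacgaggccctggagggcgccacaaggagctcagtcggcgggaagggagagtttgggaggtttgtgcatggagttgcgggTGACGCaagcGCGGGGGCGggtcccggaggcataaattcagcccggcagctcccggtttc

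The hexamer TGACGT stood in windows of Fos (66 to 61 bases before the start), Atf3 and Egr2, and in 6.47% of all 32851 windows of this length. TGACGC stood in Fosb, Junb and Nr4a1, with 4 copies in Nr4a1, and in 6.12% of all windows. These hexamers were chosen after the letters were seen. The full CREB site TGACGTCA and the AP-1 site TGANTCA were found in 0 of the 12 windows, against 1.55% and 6.75% of all windows. The Egr site stood in Fosb and Nr4a1 and in 4.7% of all windows. Within the windows of the 8 members searched, the CArG box, the site of SRF, was found in Egr2 alone. It stood in 4 of the 5 Egr2 windows (3 of which overlap and share 1 box), and in 1.47% of all windows. Bases farther upstream than these windows, and the promoters of Egr1 and Ier2, were not searched. Sites there would have been missed. Jun and Jund held none of these letters in their windows. A match is a description of the letters and does not show that a factor bound there.

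**Figure D1:**
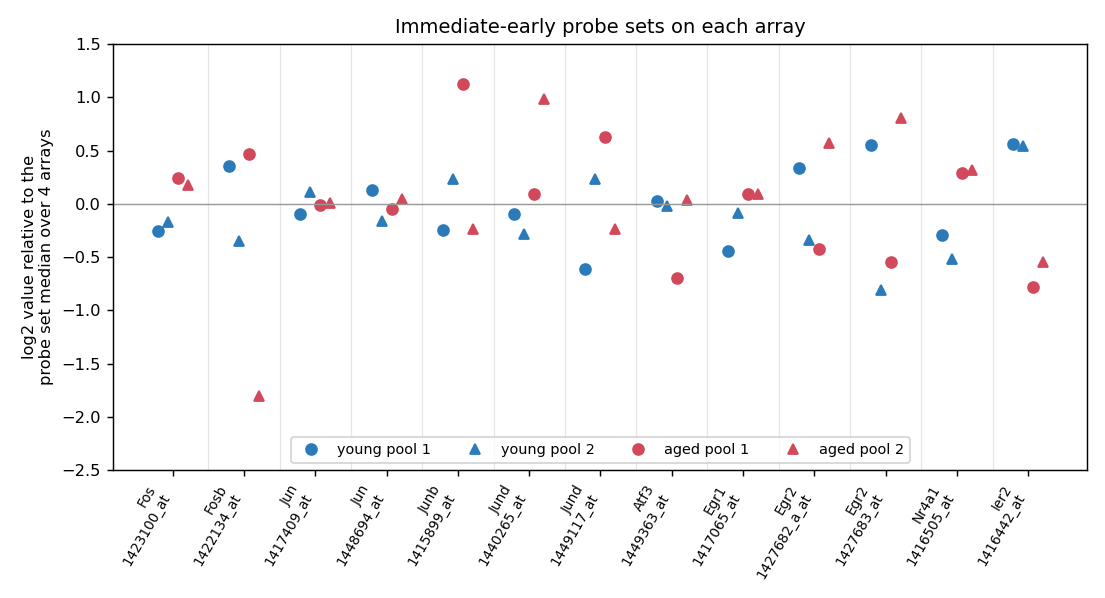
Values of the 13 immediate-early probe sets on the 4 arrays, as log2 relative to the probe set's own median (blue young, red aged, circles pool 1, triangles pool 2). Ier2 lies near 0.55 in both young pools and below -0.5 in both aged pools, and the Fosb value of aged pool 2 (-1.81) is the lowest of all.

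The first comparison asked how these genes differed between the aged and young pools of sorted cells. Markers of other cell types also differed between these pools, as given below. The 10 genes did not move as a block. Ier2 was 2.32-fold lower in aged cells. Fos, Egr1, Jund (by the mean of its probe sets) and Nr4a1 were higher in both aged pools by 1.28- to 1.64-fold. The mean of the Jun probe sets stood within 0.03 of 0 on every array, and Fosb, Junb, Egr2 and Atf3 overlapped between the ages. None of these differences passed the threshold of 0.05 after adjustment with limma (Benjamini-Hochberg over all genes). Of all 18193 genes tested 0 passed (0%), while 1645 (9.04%) had an unadjusted p under 0.05.

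Among the 10 members 1, Ier2, had an unadjusted p under 0.05 with limma, against 9.04% of all genes in either direction and 6.19% in the lower direction. By gene values the ages did not overlap in 5 members, 4 higher and 1 lower in aged cells. For Jund this held for the mean of its probe sets and for 1440265_at, while in 1449117_at the ages overlapped. Over all genes they did not overlap in 36.8%, with 19.9% higher and 16.9% lower. Aged cells were higher in 7 of the 10 members (6 with array medians set to 0 or quantile normalization, where Jun turned) and in 53.7% of all genes. The median difference was 0.26 over the members and 0.05 over all genes. The members' count at an unadjusted p under 0.05 thus lay near the background. The median was 0.40 without aged replicate 2 and 0.19 without young replicate 1. Without young replicate 2 the members higher in aged cells numbered 5.

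Ier2 encodes an immediate early response protein induced by growth factors. Its probe set, 1416442_at, stood at 0.56 and 0.54 in young pools 1 and 2, and at -0.78 and -0.54 in aged pools 1 and 2. Both aged pools were lower than both young pools, and the pools of an age lay close together. The log2 difference, aged minus young, was -1.21 ± 0.36 (SE, n = 2 pools per age; 95% interval -2.12 to -0.31), with an adjusted p = 0.380 with limma. The difference was -1.34 between pools numbered 1 and -1.08 between pools numbered 2. Leaving out 1 array kept it between -1.34 and -1.09, but its unadjusted p was no longer under 0.05 without young replicate 1, young replicate 2 or aged replicate 1. An exact permutation test of 2 pools against 2 could not give a p below 0.333.

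Fos encodes the best known AP-1 subunit and is a standard marker of recent stimulation. Its probe set, 1423100_at, stood at -0.25 and -0.17 in the young pools and at 0.24 and 0.17 in the aged pools. The ages did not overlap, and pools of one age lay within 0.08 of each other. The difference was 0.42 ± 0.36 (1.34-fold; interval -0.47 to 1.31; adjusted p = 0.849 with limma). Here, as in the other members with close pools, the standard error is mostly the variance that limma borrows from all genes, and no gene had one under 0.35.

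Nr4a1, also called Nur77, had the largest positive difference of the 10. The values of 1416505_at were -0.29 and -0.52 in the young pools and 0.29 and 0.32 in the aged pools. Both aged pools lay above both young pools. The difference was 0.71 ± 0.36 (1.64-fold; interval -0.19 to 1.61; adjusted p = 0.675 with limma).

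Egr1 followed the same order with a smaller gap. The values of 1417065_at were -0.44 and -0.09 in the young pools and 0.09 and 0.10 in the aged pools. Young pool 1 was the lowest, and the other 3 pools lay within 0.19 of each other. The difference was 0.36 ± 0.37 (1.28-fold; interval -0.56 to 1.28; adjusted p = 0.886 with limma), which is less than its standard error, and it was 0.18 without young replicate 1.

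Jund, unlike most members, is known for a high basal expression in unstimulated cells. Averaged over its 2 probe sets it stood at -0.35 and -0.02 in the young pools and at 0.36 and 0.37 in the aged pools, a difference of 0.55 ± 0.37 (1.47-fold; interval -0.36 to 1.47; adjusted p = 0.795 with limma). The probe sets gave different pictures. In 1440265_at aged pool 2 was highest at 0.98, aged pool 1 stood at 0.09, and the young pools at -0.09 and -0.28 lay below both. In 1449117_at the ages overlapped, with -0.61 and 0.24 in the young pools and 0.62 and -0.24 in the aged pools.

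Jun, the other core subunit of AP-1, was the flattest member. Its mean over 2 probe sets was 0.02 and -0.03 in the young pools and -0.03 and 0.03 in the aged pools. No pool stood apart in the mean. The probe sets 1417409_at and 1448694_at opposed each other between the young pools, at -0.09 and 0.11 in the former and 0.13 and -0.16 in the latter. The difference of Jun was 0.00 ± 0.35 (interval -0.88 to 0.89), so a change within these bounds is not excluded. The interval is no limit of detection with 2 pools per age. Its sign was negative (-0.03) with array medians set to 0 or quantile normalization.

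Junb, a Jun relative induced by cytokines and growth factors, was high in 1 pool. Its probe set, 1415899_at, stood at -0.25 and 0.23 in the young pools and at 1.12 and -0.23 in the aged pools. Aged pool 1 was the highest, and aged pool 2 lay between the young pools. The difference was 0.45 ± 0.56 (interval -0.94 to 1.84; adjusted p = 0.909 with limma), and it was -0.23 without aged replicate 1.

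Fosb, a Fos relative, was low in 1 pool. Its probe set, 1422134_at, stood at 0.35 and -0.35 in the young pools and at 0.47 and -1.81 in the aged pools. Aged pool 1 was the highest of the 4 and aged pool 2 the lowest. The difference was -0.67 ± 0.80 (interval -2.66 to 1.32; adjusted p = 0.905 with limma). It was 0.47 without aged replicate 2 and -1.81 without aged replicate 1, the latter with an unadjusted p under 0.05.

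Atf3, a stress-induced repressor and activator of the zipper class, was also set apart in 1 pool. Its probe set, 1449363_at, stood at 0.02 and -0.02 in the young pools and at -0.70 and 0.03 in the aged pools. Aged pool 1 was low, and the other 3 pools lay within 0.06 of each other. The difference was -0.33 ± 0.42 (interval -1.37 to 0.71; adjusted p = 0.911 with limma) and 0.03 without aged replicate 1. In the same pool, aged 1, Junb was the highest of its 4 values.

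Egr2, also called Krox20, varied within both ages. Its mean stood at 0.44 and -0.57 in the young pools and at -0.49 and 0.69 in the aged pools. The order was high, low, low, high, and both probe sets, 1427682_a_at and 1427683_at, showed it. The difference was 0.17 ± 0.58 (interval -1.29 to 1.62; adjusted p = 0.976 with limma), but -0.93 between pools numbered 1 and 1.26 between pools numbered 2.

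**Figure D2:**
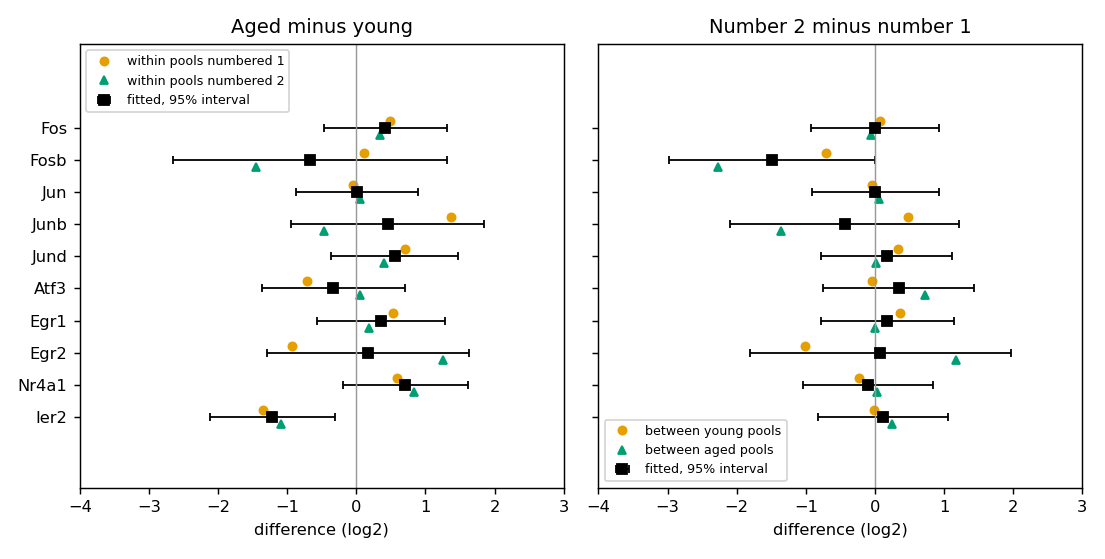
Differences of the 10 genes in log2, aged minus young on the left and pools numbered 2 minus pools numbered 1 on the right. Black squares are fitted values with 95% intervals, and coloured points are the differences between single pools. On the left the interval of Ier2 (-2.12 to -0.31) lies wholly below 0, and on the right that of Fosb reaches from -2.98 to 0.01.

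The second comparison set the pools numbered 2 against those numbered 1, with age kept in the fit. What the numbers share beyond their names is not given in the sources used here. No gene passed after adjustment (0 of 18193 with limma, 0%), and 1275 genes (7.01%) had an unadjusted p under 0.05, 545 higher and 730 lower in pools numbered 2. With array medians set to 0 that split was 440 higher and 926 lower. None of the 10 members had an unadjusted p under 0.05. The median difference of the members was 0.04 (-0.03 with array medians set to 0 and -0.0040 with quantile normalization), against 0.06 over all genes, and 7 of 10 were higher, against 54.6% of all genes. Of these 7, Fos and Jun turned negative with array medians set to 0 or quantile normalization, and Jun and Egr2 with each gene's most variable probe set.

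Fosb came nearest, with a difference of -1.49 ± 0.52 (2.81-fold lower in pools numbered 2; adjusted p = 0.679 with limma). It was the only member, by its gene value, in which the numbers did not overlap, where 36.6% of all genes did not (14.1% in this direction). The gap was -0.71 in young cells and -2.27 in aged cells, so the larger share of it came from aged pool 2. Its unadjusted p was under 0.05 with array medians set to 0 and with quantile normalization, and above it in the 5 other fits. The next by p was Atf3 at 0.34 ± 0.38, and Fos (0.01 ± 0.32), Jun (0.01 ± 0.32) and Ier2 (0.11 ± 0.33) differed little between the numbers.

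The 10 genes also varied unequally between pools of the same age. In young cells the median absolute difference was 0.28 over the members and 0.46 over all genes. In aged cells it was 0.15 over the members and 0.48 over all genes. By their gene values, Fos, Jun, Ier2, Nr4a1, Egr1 and Jund lay within 0.36 in either age. For Jund this holds for the mean of 2 opposing probe sets: between the aged pools 1440265_at differed by 0.89 and 1449117_at by -0.86, and between the young pools 1449117_at differed by 0.85. Fosb, Junb, Egr2 and Atf3 differed by 0.70 or more between the aged pools, at -2.27, -1.36, 1.17 and 0.73 (pool 2 minus pool 1). Egr2 differed by -1.02 and Fosb by -0.71 between the young pools.

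The mean profile of the members over the arrays was nearly flat, at 0.02 and -0.06 in the young pools and 0.09 and -0.05 in the aged pools. Jun lay nearest to it, at a root mean square distance of 0.08 over the 4 arrays, and Fosb farthest at 0.86. The 5 other genes nearest to that profile were Eif3m (distance 0.02), Ceacam2, Adamts15, Rpl22l1 and Mmp24. With 4 arrays this likeness is weak, since 417 genes lay within a distance of 0.1.

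**Figure D3:**
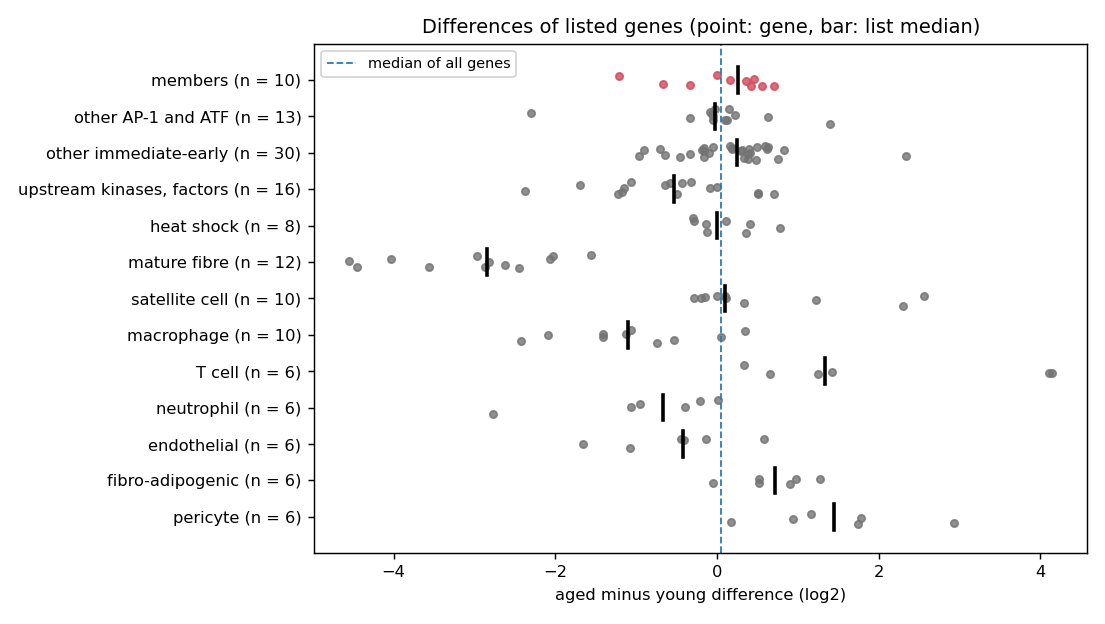
Aged minus young differences (log2) of the genes of each list, one point per gene, with the list median as a bar and the median of all genes dashed. The 10 members (red) run from -1.21 to 0.71, and every mature fibre marker lies below -1.5.

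Other genes of the same response were described from lists of related genes. Of 30 further immediate-early genes 18 were higher and 12 lower in aged cells, against 53.7% of all genes higher. Their median was 0.24, against 0.05 over all genes. Among them 1 had an unadjusted p under 0.05 with limma, against 9.04% of all genes. This was Myc, the growth-promoting transcription factor, at -0.53 and -2.17 in the young pools and 1.45 and 0.53 in the aged pools. Myc was higher in both aged pools (2.34 ± 0.66, 5.07-fold; adjusted p = 0.352 with limma), its difference was 1.53 without young replicate 2, and its unadjusted p was above 0.05 without that array or without aged replicate 1. Egr3, a relative of Egr1, stood at -0.96 ± 0.48 and the Krüppel-like factor Klf10 at -0.91 ± 0.48, both with the aged pools below the young pools. Egr3 was -0.44 without young replicate 2, and its unadjusted p was under 0.05 without young replicate 1 (-1.49) and with its most variable probe set (-2.17). Klf10 was -0.39 without aged replicate 2 and -1.43 without aged replicate 1, the latter with an unadjusted p under 0.05. The median of this list was 0.06 without aged replicate 1, 0.14 without young replicate 2 and 0.32 without young replicate 1. Between numbers, Myc (-1.27 ± 0.37) and Klf2 (-0.81 ± 0.32) had the smallest p-values, and that of Myc alone was under 0.05 before adjustment. With the same difference, the p of Myc was above 0.05 in the fit without an age term and in the fit on each gene's most variable probe set.

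Of 13 other AP-1 and ATF family genes measured, 6 were higher and 7 lower in aged cells, against 53.7% of all genes higher. Their median was -0.02 (0.22 without young replicate 2, -0.13 without young replicate 1 and 0.06 with quantile normalization). An unadjusted p under 0.05 with limma was found for 2 of the 13, against 9.04% of all genes. Atf5, a stress-responsive ATF factor, was 4.92-fold lower, with 1.97 and 0.70 in the young pools and -0.70 and -1.23 in the aged pools (-2.30 ± 0.54, adjusted p = 0.270 with limma). Maff, a small Maf protein that lacks an activation domain, was 2.64-fold higher, with -0.26 and -1.19 in the young pools and 1.09 and 0.26 in the aged pools (1.40 ± 0.52, adjusted p = 0.495 with limma). The unadjusted p of Maff was above 0.05 without young replicate 2 or aged replicate 1. It was also above 0.05, at an unchanged difference, in the fit on each gene's most variable probe set. Batf, an AP-1 factor of lymphocytes, stood at 0.63 ± 0.58, and at -0.070 without young replicate 1. Atf2, a target of p38 and JNK, was lower in pools numbered 2 (-1.02 ± 0.33, adjusted p = 0.679 with limma) and stood at -0.05 ± 0.56 between the ages. Its difference between the numbers was -3.44 with its most variable probe set, and -0.78, with an unadjusted p above 0.05, once _s_at or _x_at probe sets were left out.

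Among kinases and factors upstream of these genes or in their feedback, 12 of 16 measured were lower in aged cells and 4 higher, against 53.7% of all genes higher. An unadjusted p under 0.05 with limma was found for 2 of the 16, both lower, against 6.19% of all genes in that direction. The median was -0.54. It was -0.15 without aged replicate 1, -0.34 without young replicate 1, and -1.21 between pools numbered 1 against -0.08 between pools numbered 2. Srf, the factor that binds the CArG box, was 2.26-fold lower, at 0.26 and 0.72 in the young pools and -0.96 and -0.42 in the aged pools (-1.18 ± 0.41, adjusted p = 0.465 with limma). Mapk9, the kinase JNK2 that phosphorylates Jun, was 3.23-fold lower, at 1.28 and 0.37 in the young pools and -0.71 and -1.02 in the aged pools (-1.69 ± 0.46, adjusted p = 0.324 with limma). Their unadjusted p was above 0.05 for Srf without young replicate 1, young replicate 2 or aged replicate 1, and for Mapk9 without young replicate 1 or aged replicate 2. The same held for Mapk9 with its most variable probe set, and for Srf, at -0.51, once its _s_at or _x_at probe sets were left out (-1.85 with its most variable one). Mrtfa, an actin-regulated partner of SRF, stood at 3.60 in young pool 1 and between -0.51 and 0.32 in the others, so that its difference of -2.38 ± 1.05 became -0.74 without young replicate 1 and -4.02, with an unadjusted p under 0.05, without young replicate 2. Rps6ka3, the kinase RSK2, was lower in pools numbered 2 (-1.35 ± 0.33, adjusted p = 0.679 with limma), and Map2k2, the kinase MEK2, stood at -0.83 ± 0.38 between the numbers. With their most variable probe sets these were -2.48 and -1.30, and the unadjusted p of Rps6ka3 was above 0.05 without an age term.

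Of 8 heat shock genes that dissociation is also known to induce, 4 were higher in aged cells, against 53.7% of all genes. Their median was -0.01 (0.38 without aged replicate 1), with 0.18 between pools numbered 1 and 0.21 between pools numbered 2. The ages did not overlap in 3, all higher in aged cells, against 19.9% of all genes in that direction. An unadjusted p under 0.05 with limma was found for 0, against 9.04% of all genes. The co-chaperone Dnaja1 (0.78 ± 0.44), the inducible Hsp70 gene Hspa1a (0.41 ± 0.38) and Hsp90aa1 (0.36 ± 0.36) were higher in both aged pools, with none past the threshold. Without aged replicate 2 Dnaja1 was 0.36 and Hspa1a 0.23. With the most variable probe set Dnaja1 was 1.49 and Hsp90aa1 1.04, and without _s_at or _x_at probe sets they were 0.42 and 0.19. Hspa1b (0.59 ± 0.35) and Hspe1 (0.52 ± 0.33) had the smallest p-values between the numbers. Hspe1 was 1.24 with its most variable probe set or without its _s_at or _x_at probe sets, the latter with an unadjusted p under 0.05. Hspa1a and Hspa1b are near-identical copies that a probe set may not separate.

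Markers of other cells moved with age beside these genes, and their part in the members' differences was not tested. Over all genes 53.7% were higher in aged pools. All 12 mature fibre markers were lower in aged pools, with a median of -2.84 (Ryr1, the calcium release channel, at -4.45 ± 0.42), as were 8 of 10 macrophage markers (median -1.10; Adgre1 at -2.42 ± 0.36). All 6 T cell markers measured (median 1.34; Cd3g at 4.15 ± 0.47) and 6 of 6 pericyte markers (median 1.45; Rgs5 at 2.93 ± 0.58) were higher, as were 5 of 6 fibro-adipogenic markers (median 0.71; Dcn at 0.90 ± 0.39). Neutrophil (5 of 6 lower, median -0.67; S100a8 at -2.77 ± 0.50) and endothelial markers (5 of 6 lower, median -0.43; Egfl7 at -1.08 ± 0.38) were mostly lower. Of 10 satellite cell markers 7 were higher (median 0.10; Pax7 at 2.31 ± 0.36), and centred values do not show how strongly any of them was expressed. Leaving out 1 array moved several of these medians. Without aged replicate 1 the T cell median was 0.85, the neutrophil median -0.39 and the satellite cell median 0.25. Without young replicate 1 the fibro-adipogenic median was 0.45 and the endothelial median -0.78, and the endothelial median was -0.15 without aged replicate 2. Without young replicate 2 the neutrophil median was -0.39 and the satellite cell median 0.18, and the latter was 0.20 without aged replicate 2. The unadjusted p of Egfl7 was above 0.05 without young replicate 1 or either aged replicate, and with the most variable probe set Egfl7 was -1.75, Pax7 3.51 and Dcn 1.72, that of Dcn with an unadjusted p under 0.05. The list medians lay on the young pools at 1.30 and 1.43 and on the aged pools at -1.54 and -1.33 for fibre markers, and at -0.55 and -1.43 against 1.23 and 0.25 for T cell markers. Xist, expressed in female cells, stood at -3.48 and -2.67 in the young pools and 3.21 and 2.97 in the aged pools; the Y-linked genes Eif2s3y, Kdm5d and Uty differed by -0.09, 0.01 and 0.52. The sex of the mice is not given in the labels, and a difference in sex and in age cannot be told apart here. In pools of this kind a change in the share of a cell type and a change in RNA per cell cannot be told apart.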

How the data were processed

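The authors deposited 1 table of 4 columns, taken here as log2 values. Tested on the file, every row had a median of 0 within 5e-07, so the deposited values are centred. For the log base, background correction, probe summary and normalization, the sources used here state nothing. Per the labels' protocols, total RNA was amplified in 2 rounds and labelled with biotin. Array medians ran from -0.07 to 0.05, and the number of arrays limits the precision.

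GEO's platform annotation named the probe sets, and Entrez IDs gave current symbols (34741 of 34945 with 1 symbol). Those with several symbols (932), none (9160) or for controls (64) stayed out. Probe sets of a gene were averaged. limma 3.58.1 (R 4.3.3; lmFit, eBayes, two-sided) gave aged minus young without a block (2 residual and 3.56 prior degrees of freedom) and number 2 minus number 1 beside age (1 residual). The ± is the fit's standard error, and adjustment was over 18193 genes. No filter on level or variance trend could be used on centred values. The age fit was tested on 20 simulated data sets, with changes of log2 size 1 to 4 planted in 200 of 18193 genes. Almost no planted change passed after adjustment, and that share can depend on the number planted. At an unadjusted p under 0.05 with limma, a share of 0.403 passed at size 1 and 0.903 at size 2.

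The members, gene lists and tests were chosen with earlier results of these data known. Named genes were the members, in each list of related genes the 3 smallest p-values for age and 2 for number, in each marker list the smallest for age, and the 5 genes nearest the members' profile. Xist, Eif2s3y, Kdm5d and Uty were picked by hand, outside these rules. Listed genes not matched in the tested table have no values here. Promoter windows were cut to the bases before the start. Figures were drawn with matplotlib 3.10.9.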

Additional observations from a re-analysis of the deposited data

How the results depend on the processing

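Across the alternatives run, the count of genes with an adjusted p under 0.05 was 0 for age and for number, which says nothing about stability, since almost no change planted in simulated data for the age fit passed either. The counts at an unadjusted p under 0.05 stayed within 1.5 times of 1645 and 1275. Leaving out 1 array gave 1205 to 1662 genes for age and member medians from 0.19 to 0.40. Same-numbered pools deviated together only weakly (correlation of deviations over genes 0.138), and the labels do not say that they share a batch. With the replicate block there were 1768 genes at an unadjusted p under 0.05. Ier2 has 1 probe set and its ages did not overlap. Of the alternatives, only setting array medians to 0 and quantile normalization could therefore have turned its direction. Ier2 kept its direction in all 10 alternatives to the age fit, and its unadjusted p was under 0.05 in 7 of the 11 fits (adjusted p 0.351 to 0.765), the others being 3 with 1 array left out and the one that kept each gene's most variable probe set.

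Directions turned in several members and in Batf. Some of these differences lay near 0 or were set by 1 pool, and Egr2 varied within both ages. Beyond the construction of each setting the cause was not tested. For age, Jun was -0.0277 with array medians set to 0, -0.0280 with quantile normalization and -0.0459 within number 1. Leaving out 1 array gave ranges of -0.0249 to 0.0338 for Jun, -0.23 to 1.13 for Junb, -1.81 to 0.47 for Fosb, -0.42 to 0.75 for Egr2, -0.70 to 0.034 for Atf3 and -0.070 to 1.34 for Batf. Within number 1 Fosb was 0.11 and Egr2 -0.93, and within number 2 Junb was -0.47 and Atf3 0.056. For number, Fos and Jun were both -0.06 with array medians set to 0 (-0.0644 and -0.0639), and -0.0745 and -0.0666 with quantile normalization. With the most variable probe set Jun was -0.0955 and Egr2 -0.0022. Within young, Jun was -0.0420, Junb 0.48, Egr2 -1.02, Atf3 -0.0451 and Ier2 -0.0174, and within aged Fos was -0.0635 and Nr4a1 0.0287. Alternatives for the other lists and for member counts were added after seeing the data. Signal over background is unknown, so members near background cannot be told from those well measured.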
